A study of Mus musculus with 9 samples.

Results

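The genes described here are Nos2, which encodes the inducible nitric oxide synthase, and the enzymes that make its cofactor, break down its inhibitors or compete for its substrate. The set lists 9 genes, namely Nos2, Gch1, Pts, Spr, Ddah1, Ddah2, Arg1, Arg2 and Ass1. A gene was measured through probe sets annotated to it alone, and the probe set with the highest mean over all 9 arrays would have stood for a gene with several. Each of the 8 genes measured had only 1 such probe set, so this choice by brightness decided nothing among them. Ass1 had no probe set of its own. The 8 genes are set against the 19938 genes of the arrays that could be named in the same way. Nos2 was put in the set with its high level in MR20 already known, so its values in MR20 are a description without a test.

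The arrays compared 4T1, a metastatic mouse mammary carcinoma line from BALB/c mice, with a pair of lines grown from 4T1 cells that had survived a drug in culture. The 4T1 samples were untreated and labelled WT. MR20 cells came from methotrexate, a folate antagonist, given at 20 µg/ml according to the sample labels (the paper writes ng/ml for the same figure), for up to 2 weeks, followed by 2 weeks without drug. DR500 cells came from doxorubicin, an anthracycline that damages DNA, raised in steps to 500 ng/ml, and then also grew without drug. Some label fields of DR500 name methotrexate, whereas its treatment protocol and the paper name doxorubicin. Each line gave 3 arrays. The labels call those of 4T1 and MR20 biological replicates and those of DR500 samples. The figure legends of the paper speak of biological triplicates for all 3 lines, while the methods speak of triplicate wells. The spread behind the p-values is therefore that of these samples and may be technical. The selected lines are the grown-out survivors of treated cultures, and both are compared with the same 3 4T1 arrays. The DR500 protocol also names a 4T1 control by a code that the sources used here do not explain, and array dates were not given, so an array batch of DR500 cannot be told apart from the line.

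Array quality touches all values alike. The array medians lay between 6.24 and 6.38 on the log2 scale, and Pearson correlations across genes were 0.995 to 0.999 within a line and 0.966 to 0.987 between lines. Of 10 epithelial markers, 5 rose in MR20 against 4T1, beside 15.4% of all 19938 genes. In DR500 against 4T1, 9 fell, beside 21.3% of all genes, with a median log2 difference of -3.81. The keratin gene Krt8 stayed at a mean of 13.43 in DR500 against 13.41 in 4T1, whereas the adhesion gene Epcam was at 6.82 against 11.01, so the defining surface marker of an epithelial line was low in DR500. In bulk RNA, fewer cells that express a gene and less RNA per cell cannot be told apart.

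Nitric oxide synthases turn arginine into citrulline and nitric oxide. The inducible enzyme binds calmodulin tightly and works without a calcium signal, so its output is set mostly by how much enzyme, arginine and tetrahydrobiopterin a cell has. It is best known from macrophages exposed to interferons and bacterial products, and several carcinomas express it too. Tetrahydrobiopterin is built from GTP by the products of Gch1, Pts and Spr. Asymmetric dimethylarginine, released when methylated proteins are degraded, blocks nitric oxide synthases. It is hydrolysed within the dimethylarginine hydrolase family, to which the products of Ddah1 and Ddah2 belong. The arginases Arg1 and Arg2 split arginine into ornithine and urea, and Ass1 takes part in rebuilding arginine from citrulline.

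Nos2 was higher in both selected lines than in 4T1, and the levels of the 3 lines lay far apart. The 4T1 arrays read 6.46, 6.30 and 6.33 for Nos2 on the log2 scale. The MR20 arrays read 11.58, 11.37 and 11.45, and the DR500 arrays read 8.68, 8.69 and 8.67. The order was therefore 4T1, DR500 and MR20, and no array of a line overlapped with an array of another. In DR500, Nos2 rose by 2.32 on the log2 scale against 4T1 (standard error, SE, 0.07, limma adjusted p = 2.88e-09), which is a 4.98-fold higher level, in 3 of 3 arrays. The 4T1 arrays of this test are also those of the known MR20 difference, so its p is not independent of the choice of Nos2. The difference of MR20 from 4T1 was 5.10 on the log2 scale, and that of DR500 from MR20 was -2.78. Over all settings tried, the DR500 difference from 4T1 ranged from 2.28 to 2.4. The 4T1 values of Nos2 lay near the medians of those arrays, 6.34 to 6.38, and no detection call tells them from background. The differences of both selected lines from 4T1 may therefore be larger than given.

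**Figure D1:**
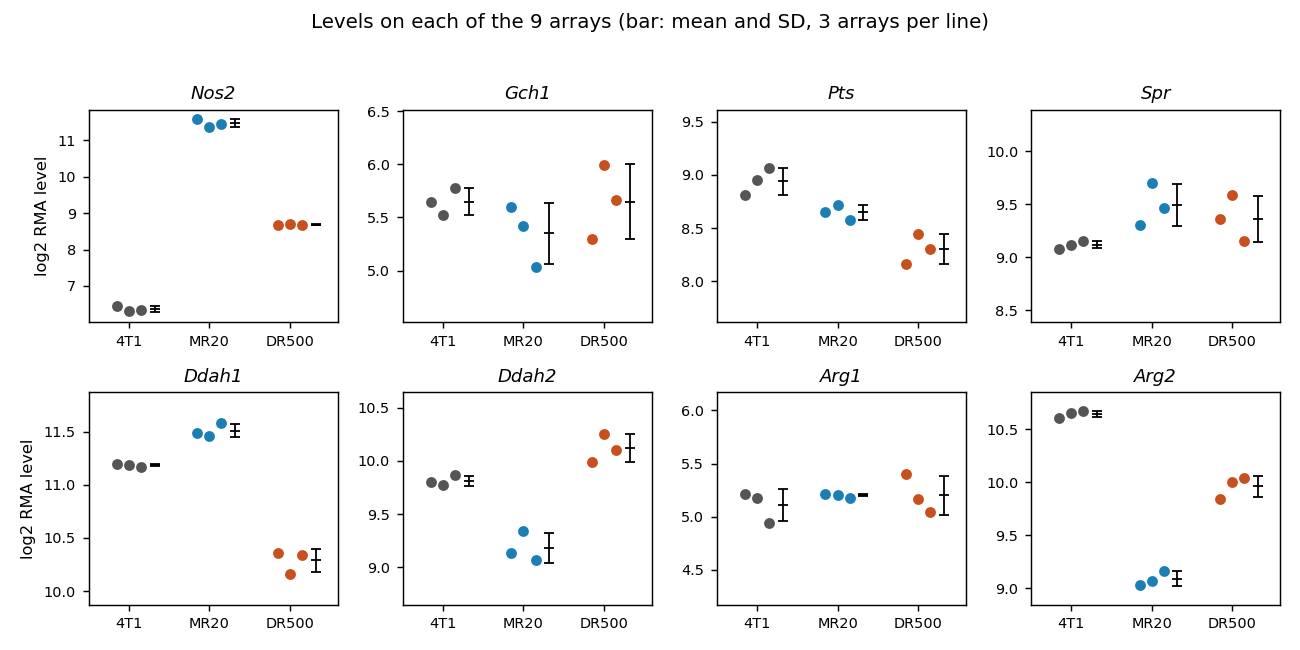
Log2 RMA level (y axis, a separate scale per panel) of each of the 8 measured genes on the 9 arrays, by line (x axis). Points are single arrays and the black bars give the mean and SD of 3 arrays. Nos2, Ddah1, Ddah2, Pts and Arg2 form 3 groups that do not overlap, whereas the points of Gch1 and Arg1 overlap between all lines.

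Because Nos2 is a well known macrophage gene, markers of myeloid cells were read on the same arrays. Of 16 such markers, 3 rose and 1 fell in MR20 against 4T1, beside 15.4% and 17.1% of all 19938 genes. In DR500 against 4T1, 8 rose, beside 20.2% of all genes. Their summed level on the linear scale was 1530 to 1629 in 4T1, 3231 to 3285 in MR20 and 4281 to 4874 in DR500. The macrophage and leukocyte genes Ptprc, Adgre1, Csf1r, Tyrobp, Fcer1g and Lyz2 did not pass the threshold in either line, and their line means lay between 4.15 and 5.63 on the log2 scale, below the array medians. The sums moved mainly through a few genes, among them Cd14, a coreceptor for bacterial lipopolysaccharide (1.42 higher in MR20 and 0.67 in DR500 on the log2 scale), and Cd68, a lysosomal protein (1.23 and 2.30). Cd53, Mertk and Ly6g rose in DR500 by 4.35, 2.32 and 2.51, and in MR20 Cd53 rose by 0.95, Mertk fell by 0.89 and Ly6g differed by 0.36 (limma adjusted p = 0.0694). The macrophage genes Mrc1, Cd163 and Aif1 also rose in DR500, by 0.31, 0.30 and 0.34, with line means that stayed below the array medians. The part of myeloid marker expression in the Nos2 values was not tested.

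The signals of the other nitric oxide synthases lay near the array medians and differed little between the lines. The filter on dim genes removed both Nos1 and Nos3, and no detection call tells their signal from background. Their values therefore bound the signal and not the transcript. Nos1, the neuronal enzyme gene, read 6.01, 6.10 and 5.93 in 4T1, 5.89, 6.11 and 6.13 in MR20, and 6.48, 6.41 and 6.11 in DR500. It rose by 0.32 in DR500 against 4T1 (SE 0.10, limma adjusted p = 0.0313), and this call was lost without replicate 1 or 3 of 4T1 (0.32 and 0.28) and without replicate 1 or 2 of DR500 (0.25 and 0.28). Nos3, the endothelial enzyme gene, had means of 6.40 in 4T1, 6.44 in MR20 and 6.49 in DR500, and its 95% intervals for MR20 and DR500 against 4T1 were -0.30 to 0.36 and -0.25 to 0.42. None of 7 endothelial markers passed the threshold in limma in either line, and 2 had an unadjusted p under 0.05 in DR500. Under limma's intensity trend with a robust prior the count was also 0.

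Among the 7 genes of the set that were tested in MR20 against 4T1, 2 rose and 3 fell, beside 15.4% and 17.1% of all 19938 genes. In DR500 against 4T1, 2 of 8 rose and 3 fell, beside 20.2% and 21.3% of all genes. In DR500 against MR20, 2 of 7 rose and 2 fell, beside 21.2% and 20.6%. Their median log2 difference was -0.29, 0.05 and 0.00 in these comparisons, against -0.01, 0.07 and 0.07 over all genes. With so few genes these shares carry no more than the single values below. When the arrays were quantile normalized again or centred on their medians, the share of rises among all called genes in DR500 against 4T1 went from 48.8% to 61.8% and 62.0%, so small differences in DR500 depend on the scaling.

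Of the 3 genes of tetrahydrobiopterin synthesis, Pts fell in both selected lines, and Gch1, the gene of the rate-limiting step, passed the threshold in neither. Gch1 read 5.65, 5.52 and 5.78 in 4T1, 5.60, 5.42 and 5.03 in MR20, and 5.30, 5.99 and 5.66 in DR500. These values overlapped between all lines and lay below the array medians. The 95% interval of the Gch1 difference from 4T1 was -0.70 to 0.10 in MR20 and -0.40 to 0.40 in DR500, so a doubling of Gch1 signal, a log2 difference of 1, lay outside both. The filter on dim genes removed Gch1, and no detection call tells its signal from background. These intervals therefore bound the signal and not the transcript. DR500 differed from MR20 by 0.30 in Gch1 (limma adjusted p = 0.205), and without replicate 1 of DR500 by 0.48 (adjusted p = 0.0427).

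Pts encodes the enzyme of the second step of tetrahydrobiopterin synthesis. It read 8.81, 8.95 and 9.07 in 4T1, 8.65, 8.72 and 8.58 in MR20, and 8.16, 8.44 and 8.30 in DR500. The lines did not overlap and followed the order 4T1, MR20 and DR500 from high to low. Pts fell by 0.65 in DR500 (SE 0.09, limma adjusted p = 0.00016) and by 0.29 in MR20 (SE 0.09, adjusted p = 0.0268). The MR20 call was lost without replicate 2 or 3 of 4T1 (-0.29 and -0.23) and without replicate 1 or 3 of MR20 (-0.30 and -0.26), with adjusted p between 0.0655 and 0.108, and also when the arrays were centred on their medians (-0.25, adjusted p = 0.0849).

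Spr encodes sepiapterin reductase, which carries out the last step. Its values were 9.08, 9.12 and 9.15 in 4T1, 9.30, 9.70 and 9.46 in MR20, and 9.36, 9.59 and 9.15 in DR500. Spr thus spread more in the selected lines than in 4T1. It rose by 0.37 in MR20 (SE 0.12, limma adjusted p = 0.038), a call that was lost without any 1 of the 3 4T1 arrays (0.35 to 0.39, adjusted p of 0.0757 to 0.105) and without replicate 2 or 3 of MR20 (0.26 and 0.38, adjusted p = 0.146 and 0.0776). In DR500 the difference of 0.25 did not pass (adjusted p = 0.132), but did without its replicate 3 (0.35, adjusted p = 0.0322) and after centring the arrays (0.30, adjusted p = 0.0412).

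**Figure D2:**
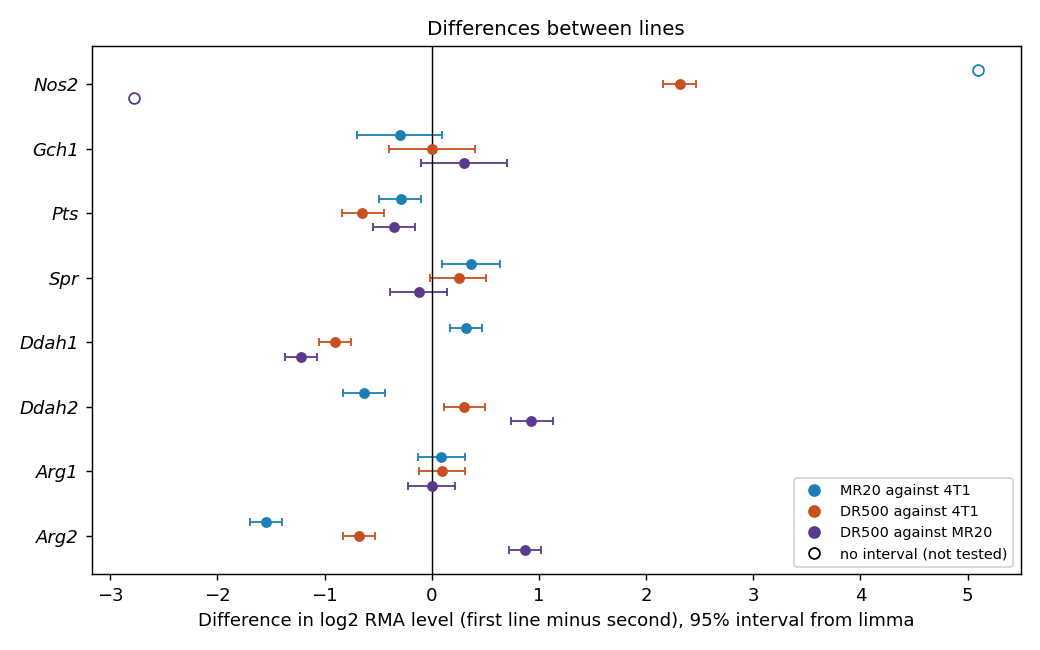
Difference in log2 RMA level between lines (x axis) for each of the 8 genes (y axis). Both selected lines are set against 4T1, and DR500 also against MR20. Filled points carry the 95% interval from limma, and open points mark Nos2 values that were not tested. Ddah1 and Ddah2 lie on opposite sides of 0 in MR20 and DR500, and the intervals of Gch1 and Arg1 include 0 in all comparisons.

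Of 4 measured genes of tetrahydrobiopterin feedback and recycling, 2 fell in MR20, beside 17.1% of all genes. In DR500, 1 rose and 1 fell, beside 20.2% and 21.3%. Gchfr encodes the protein through which tetrahydrobiopterin feeds back on GTP cyclohydrolase 1. It read 9.54, 9.60 and 9.61 in 4T1, 9.16, 8.78 and 8.84 in MR20, and 11.16, 11.26 and 11.19 in DR500. Gchfr fell by 0.66 in MR20 (SE 0.09, limma adjusted p = 0.000293) and rose by 1.62 in DR500 (SE 0.09, adjusted p = 2.98e-07), so that the 2 selected lines lay on either side of 4T1. Qdpr, whose enzyme regenerates tetrahydrobiopterin after hydroxylations, fell by 0.46 in MR20 and by 0.68 in DR500.

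Enzymes other than nitric oxide synthases that use tetrahydrobiopterin are few. Of 4 measured, 1 rose in MR20 and 2 rose in DR500, beside 15.4% and 20.2% of all genes. Agmo, the alkylglycerol monooxygenase that cleaves ether lipids, read 4.17, 4.19 and 4.14 in 4T1, 6.51, 6.21 and 6.26 in MR20, and 4.46, 4.90 and 4.58 in DR500. It rose by 2.16 in MR20 (SE 0.11, limma adjusted p = 4.39e-07) and by 0.48 in DR500 (adjusted p = 0.00568), and its arrays did not overlap between lines. All 4T1 values and 2 of the 3 DR500 values lay below the lower quartile of all probe sets, and the filter on dim genes removed Agmo, so its differences from 4T1 are lower bounds at best and the small one in DR500 is uncertain. Tph2, a tryptophan hydroxylase of serotonin synthesis, rose by 0.51 in DR500 and differed from 4T1 by 0.03 in MR20 (adjusted p = 0.855). All Tph2 values lay below the array medians and the filter on dim genes removed this gene too, so its rise in DR500 is uncertain.

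The genes Ddah1 and Ddah2 moved in opposite directions. Ddah1 read 11.20, 11.19 and 11.17 in 4T1, 11.49, 11.46 and 11.58 in MR20, and 10.36, 10.16 and 10.34 in DR500. Ddah2 read 9.80, 9.77 and 9.87 in 4T1, 9.13, 9.34 and 9.07 in MR20, and 9.99, 10.25 and 10.10 in DR500. For both genes no line overlapped with another, but the order was turned, with MR20 highest for Ddah1 and DR500 highest for Ddah2. In MR20, Ddah1 rose by 0.32 (SE 0.07, limma adjusted p = 0.00402) and Ddah2 fell by 0.63 (SE 0.09, adjusted p = 0.000283). In DR500, Ddah1 fell by 0.90 (SE 0.07, adjusted p = 2.17e-06) and Ddah2 rose by 0.30 (SE 0.09, adjusted p = 0.0172). The call of Ddah2 in DR500 was lost without replicate 1 or 2 of 4T1 (0.30 and 0.28, adjusted p = 0.0501 and 0.0617) or replicate 2 of DR500 (0.23, adjusted p = 0.0672). Set directly against MR20, DR500 had Ddah1 lower by 1.22 (adjusted p = 2.02e-07) and Ddah2 higher by 0.93 (adjusted p = 1.01e-05).

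The promoters of this pair are printed because the genes part so clearly. They run from 250 bases before to 50 bases after the start of the gene, 5′ to 3′ on the strand of the gene, as listed by RefSeq on GRCm38.p6, a later assembly than the one of the array annotation. Promoters were found for 6 of the 9 genes of the set, and not for Nos2, Arg1 and Arg2. Searched on both strands were the TATA box TATAAA, the CCAAT box CCAAT, the GC box GGGCGG, the gamma-activated site GAS as TTCNNNGAA and the core of the interferon-stimulated response element as GAAANNGAA, with overlaps between motifs allowed. Capitals mark every match. Of all 32851 promoters of the same length, 13.6% held the TATA box, 37.4% the CCAAT box, 35.7% the GC box, 8.3% the GAS letters and 8.56% the response element core.
Ddah1 (chr3:145758442-145758741, plus strand): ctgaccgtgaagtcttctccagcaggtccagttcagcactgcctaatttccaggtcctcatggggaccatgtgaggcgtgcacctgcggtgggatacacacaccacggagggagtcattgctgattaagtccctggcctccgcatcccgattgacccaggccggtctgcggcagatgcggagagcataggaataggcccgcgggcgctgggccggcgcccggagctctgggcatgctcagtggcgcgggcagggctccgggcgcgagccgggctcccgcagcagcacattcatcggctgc
Ddah2 (chr17:35058785-35059084, plus strand): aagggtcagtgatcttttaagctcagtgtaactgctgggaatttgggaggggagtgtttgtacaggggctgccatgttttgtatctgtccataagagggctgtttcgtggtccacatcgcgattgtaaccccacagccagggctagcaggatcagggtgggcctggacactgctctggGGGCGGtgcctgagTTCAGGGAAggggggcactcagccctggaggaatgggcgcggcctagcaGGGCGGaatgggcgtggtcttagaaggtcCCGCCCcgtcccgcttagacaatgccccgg

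The Ddah2 window held 3 GC boxes and the GAS letters at positions -58 to -50 from the start, and the Ddah1 window held none of the 5 motifs. Their share of G and C was 59.7% and 65.7%. A match gives letters only and was not tied to any expression value.

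The enzymes that make asymmetric dimethylarginine residues come before the step of the dimethylarginine hydrolase family. The list read here also holds makers of monomethylarginine and symmetric dimethylarginine. Of 10 genes of arginine methylation and methylarginine breakdown outside the set, 2 rose and 3 fell in MR20. The shares of all genes were 15.4% and 17.1%. In DR500, 1 rose and 4 fell, beside 20.2% and 21.3%. The list medians were 0.08 and -0.07 on the log2 scale, beside -0.01 and 0.07 over all genes. Prmt7, which makes monomethylarginine, fell by 0.54 in MR20 and by 1.10 in DR500, and its DR500 arrays read 9.07, 8.97 and 8.97 against 10.09, 10.07 and 10.16 in 4T1. Prmt9, which makes symmetric dimethylarginine, fell by 0.59 and 0.57. Prmt3, one of the makers of asymmetric dimethylarginine, rose by 0.42 in MR20 and differed by -0.02 in DR500 (limma adjusted p = 0.817). Prmt5, the main maker of symmetric dimethylarginine, fell by 0.25 in MR20 and by 0.19 in DR500, the latter no longer past the threshold once arrays were centred (-0.13, adjusted p = 0.128).

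Of the arginases, Arg2 fell in both selected lines and Arg1 was at a low signal throughout. Arg2, the mitochondrial form, read 10.60, 10.65 and 10.67 in 4T1, 9.03, 9.07 and 9.16 in MR20, and 9.84, 10.00 and 10.04 in DR500. Its lines did not overlap, and the order 4T1, DR500 and MR20 from high to low was the reverse of that of Nos2. Arg2 fell by 1.55 in MR20 (SE 0.07, limma adjusted p = 9.49e-08), to 0.341 of the 4T1 level, and by 0.68 in DR500 (SE 0.07, adjusted p = 1.51e-05), to 0.624 of it. DR500 was higher than MR20 by 0.87 (adjusted p = 2.27e-06).

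Arg1, the cytosolic form that marks the urea cycle and some macrophages, read 5.21, 5.18 and 4.94 in 4T1, 5.21, 5.20 and 5.18 in MR20, and 5.40, 5.17 and 5.04 in DR500. All lines overlapped below the array medians. The 95% interval of its difference from 4T1 was -0.13 to 0.31 in MR20 and -0.12 to 0.31 in DR500. Ass1, argininosuccinate synthase, shares both of its probe sets with the gene Gm5424, and the signal of the pair cannot be separated on these arrays. Those probe sets had means of 10.8 and 10.6 in 4T1, 10.5 and 10.3 in MR20, and 9.94 and 9.80 in DR500.

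Beyond the set, 71 of 81 listed genes of nitric oxide and arginine biology were measured. Of these, 11 rose and 25 fell in MR20 against 4T1, and 25 rose and 18 fell in DR500. In DR500 against MR20, 27 rose and 11 fell. Over all genes, 15.4% rose and 17.1% fell in MR20, 20.2% and 21.3% did in DR500, and 21.2% and 20.6% did in DR500 against MR20, so the MR20 rises and the DR500 falls of the lists lay near the share of all genes. Counts of the single lists, each of 13 genes or fewer, stand against the same shares. The genes without a probe set of their own included Pycr1 and Nfkb1.

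Of 12 genes of arginine and citrulline transport and the urea cycle, 7 fell in MR20, beside 17.1% of all genes. In DR500, 1 rose and 3 fell, beside 20.2% and 21.3%. The list medians were -0.47 in MR20 and -0.09 in DR500, beside medians of -0.01 and 0.07 over all genes. Slc7a1, the main importer of arginine, fell by 0.62 in MR20 (limma adjusted p = 9.47e-05) and by 0.48 in DR500 (adjusted p = 0.000322). Asl, which releases arginine from argininosuccinate, fell by 0.71 and 0.51, and its 4T1 arrays read 9.50, 9.42 and 9.45 against 8.73, 8.71 and 8.78 in MR20 and 8.97, 8.94 and 8.92 in DR500. Slc25a15, the mitochondrial ornithine carrier, fell by 0.87 and 1.01. Slc7a7, part of a carrier that lets arginine out of cells, fell by 0.72 in MR20 and differed by 0.07 in DR500 (adjusted p = 0.653).

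Among 13 genes of other arginine and ornithine use, 2 rose and 5 fell in MR20, beside 15.4% and 17.1% of all genes. In DR500, 5 rose and 6 fell, beside 20.2% and 21.3%. The creatine gene Gatm, whose enzyme spends arginine on guanidinoacetate, read 7.26, 7.32 and 7.28 in 4T1, 4.61, 4.64 and 4.56 in MR20, and 4.58, 4.64 and 4.71 in DR500. It fell by 2.69 in MR20 (SE 0.06, limma adjusted p = 8.93e-10), and its level fell by 2.65 in DR500 (SE 0.06, adjusted p = 4.72e-10), but both selected lines lay near the lower quartile of all probe sets, which was 4.62 to 4.74 on the 9 arrays. No detection call tells such values from background, so the falls are at least this large and the likeness of the lines carries no information. Aldh18a1, which makes the precursor of proline and ornithine from glutamate, fell by 1.43 and 1.48. Prodh, which degrades proline, fell by 0.97 in MR20 and by 1.28 in DR500. Smox, spermine oxidase, rose by 0.55 and 0.65. The values of both lines share their 4T1 arrays, so their likeness is not independent.

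Among the genes of proteins that bind nitric oxide synthases or respond to nitric oxide, Nostrin and Pde5a moved in opposite directions in MR20 and DR500. Nostrin, which guides the endothelial synthase inside the cell, read 5.77, 5.81 and 5.79 in 4T1, 7.58, 7.50 and 7.21 in MR20, and 4.90, 5.10 and 4.78 in DR500. It rose by 1.65 in MR20 (SE 0.11, limma adjusted p = 1.75e-06) and fell by 0.86 in DR500 (SE 0.11, adjusted p = 7.37e-05). Pde5a, the phosphodiesterase that ends the cyclic GMP signal of nitric oxide, read 5.83, 5.77 and 5.81 in 4T1, 5.37, 5.32 and 5.30 in MR20, and 8.99, 9.06 and 9.26 in DR500. It fell by 0.47 in MR20 and rose by 3.30 in DR500 (SE 0.07, adjusted p = 4.72e-10). The Nostrin values of 4T1 and DR500 and the Pde5a values of 4T1 and MR20 lay below the array medians. The Nostrin fall in DR500 and the Pde5a fall in MR20 are therefore uncertain.

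Of 6 synthase partners, 3 rose and 2 fell in MR20, beside 15.4% and 17.1% of all genes. In DR500, 3 rose and 1 fell, beside 20.2% and 21.3%. Nosip, which binds the endothelial synthase, rose by 0.77 in DR500 and by 0.26 in MR20, the latter lost without replicate 1 or 2 of 4T1 (0.24 each) or replicate 2 of MR20 (0.19). The calmodulin gene Calm3 rose by 0.51 and 0.37. Nos1ap, an adaptor of the neuronal synthase, fell by 0.32 in MR20, and by the mean of its probe sets the difference was -0.12 (limma adjusted p = 0.217).

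Of 8 genes of nitric oxide targets and removal, 2 fell in MR20, beside 17.1% of all genes. In DR500, 2 rose and 1 fell, beside 20.2% and 21.3%. Prkg2, a kinase switched on by cyclic GMP, fell by 1.04 in MR20 and by 0.55 in DR500, where the call was lost without replicate 2 or 3 of 4T1 (-0.43 and -0.49) or replicate 1 of DR500 (-0.41). By the mean of its probe sets the differences were -0.66 and -0.30. Cygb, a globin that can remove nitric oxide, rose by 0.56 in DR500, a call lost without replicate 3 of 4T1 (0.52) or replicate 1 of DR500 (0.42).

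**Figure D3:**
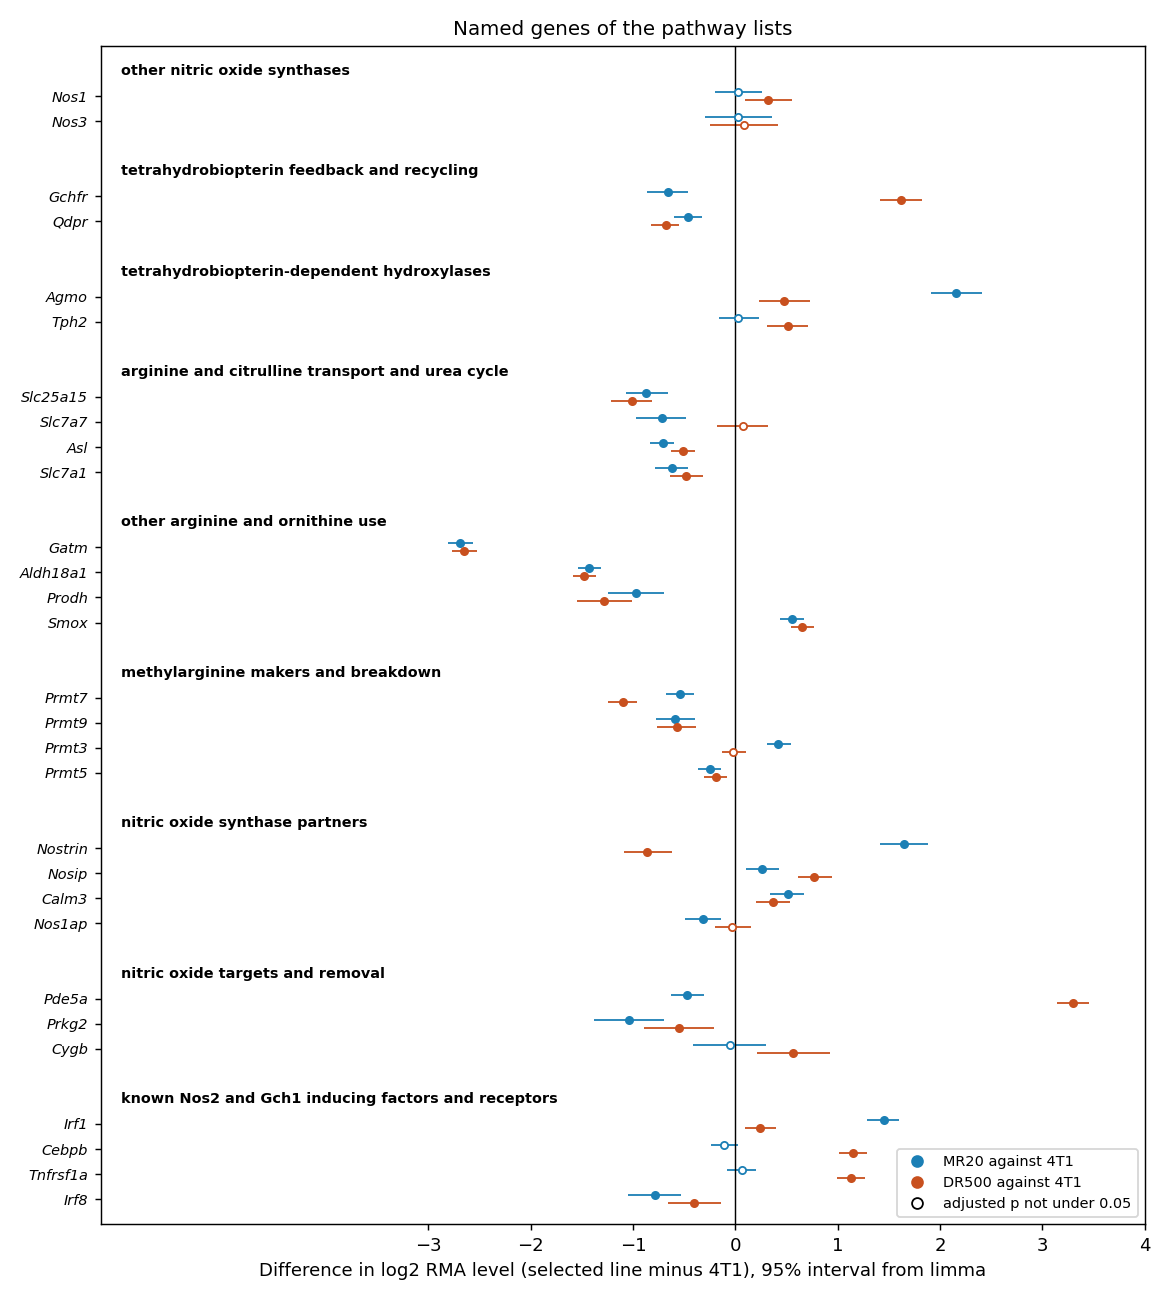
Difference in log2 RMA level (x axis) of the named genes of each list (y axis), for MR20 and DR500 against 4T1, with the 95% interval from limma. Open points did not reach an adjusted p under 0.05. Aldh18a1 lies at -1.43 and -1.48 in the 2 lines, and Gatm fell to the low end of the arrays in both. Gchfr, Nostrin and Pde5a lie on opposite sides of 0, with the falls of Nostrin and Pde5a at levels below the array medians.

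Of 12 factors and receptors that are known to induce Nos2 or Gch1, 3 rose and 4 fell in MR20. The shares of all genes were 15.4% and 17.1%. In DR500, 9 rose and 2 fell, beside 20.2% and 21.3%. The list medians were -0.10 and 0.42, beside -0.01 and 0.07 over all genes. Irf1, an interferon-induced factor through which interferon gamma acts on Nos2 in macrophages, read 9.29, 9.44 and 9.34 in 4T1, 10.83, 10.71 and 10.86 in MR20, and 9.54, 9.56 and 9.69 in DR500. By the brighter of its probe sets it rose by 1.45 in MR20 (SE 0.07, limma adjusted p = 2.07e-07) and by 0.24 in DR500 (adjusted p = 0.0161), the latter lost without replicate 1 or 3 of 4T1 (0.21 and 0.23) or replicate 3 of DR500 (0.20). By the mean of its probe sets the MR20 rise was 0.95. Irf8, a related factor of myeloid cells, fell by 0.79 in MR20 and by 0.40 in DR500, where it was lost without replicate 2 of 4T1 (-0.37) or replicate 1 of DR500 (-0.34), and after repeated quantile normalization (-0.28).

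Cebpb, a factor of the inflammatory response, rose by 1.15 in DR500 (SE 0.06, limma adjusted p = 2.02e-07) and differed by -0.11 in MR20 (adjusted p = 0.257). Tnfrsf1a, a receptor for tumor necrosis factor, rose by 1.13 in DR500 (adjusted p = 2.72e-07) and differed by 0.06 in MR20 (adjusted p = 0.562). In DR500 against MR20, Irf1 thus fell by 1.20, or by 0.74 as the mean of its probe sets, and Cebpb and Tnfrsf1a rose by 1.26 and 1.07. How much of the Nos2 values goes with any of these genes was not tested.

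The genes whose profiles lay nearest to Nos2 were found by the Euclidean distance over the 9 arrays after each gene's 4T1 mean was subtracted, which is a description without a test. The 5 nearest were Irf7, Zbp1, Akr1c18, Gbp4 and Trim30a, at distances of 2.73, 2.74, 2.79, 3.04 and 3.15. Irf7 is an interferon regulatory factor, Zbp1 a nucleic acid sensor, Gbp4 an interferon-inducible GTPase and Trim30a a tripartite motif protein. Akr1c18 is an aldo-keto reductase that inactivates progesterone. Pearson correlations with Nos2 over the 9 arrays, which fall into 3 lines, were 0.945, 0.972, 0.900, 0.984 and 0.995 in the same order.

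The 5 genes differed in the line where they stood off from Nos2. Trim30a read 8.16, 7.91 and 8.10 in 4T1, 11.48, 11.44 and 11.35 in MR20, and 9.74, 9.88 and 9.89 in DR500, an excess over 4T1 of 3.37 and 1.78 on the log2 scale. Irf7 read 5.82, 6.31 and 6.22 in 4T1 and 6.72, 6.97 and 7.00 in DR500, an excess of 0.78. Akr1c18 had the largest DR500 excess of the 5, 3.69 on the log2 scale, and was the only one whose DR500 excess was above that of Nos2. It read 4.50, 4.73 and 4.57 in 4T1, near the lower quartile of all probe sets. The 4T1 values of Irf7 lay below the medians of those arrays. No detection call tells such values from background, so the excesses of both genes may be larger than given, and their distances rest on them. At most 1 of the 5 nearest changed place with another gene when an array was left out, when dim genes were removed or when arrays were centred.

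**Figure D4:**
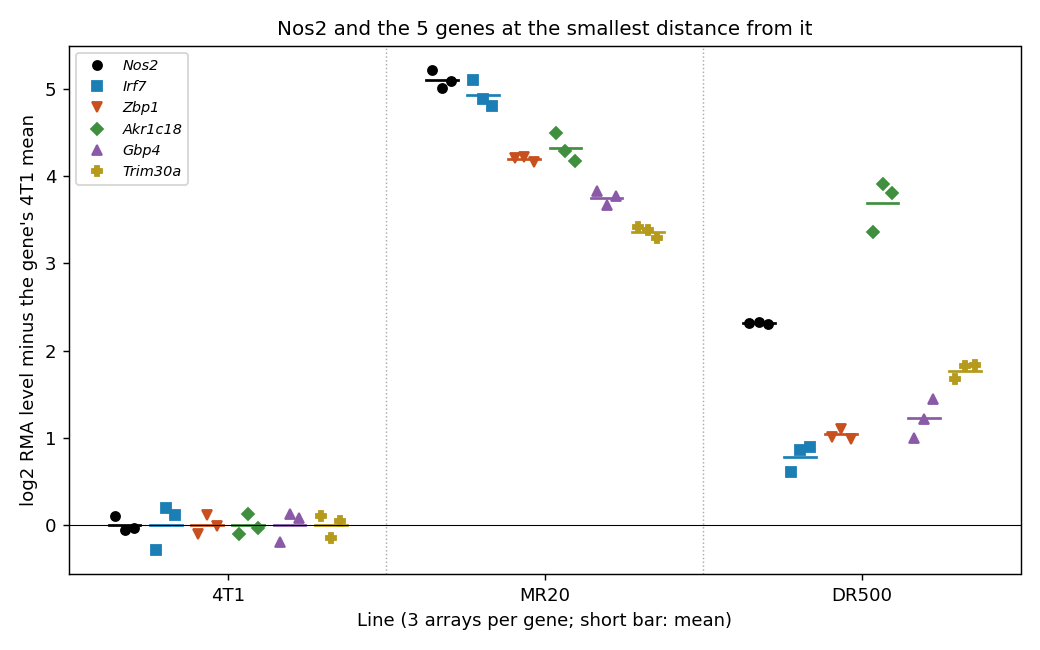
Log2 RMA level minus the 4T1 mean of each gene (y axis) for Nos2 and its 5 nearest genes in the 3 lines (x axis), with 1 point per array and a short bar at the line mean. In MR20 all 6 genes lie above 3, while in DR500 Akr1c18 lies above Nos2 and the other genes lie below it.

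The promoters of Irf7 and Trim30a, nearest of the 5 to Nos2 by distance and by correlation, are shown with the same motifs in capitals. Trim30a has a pair of listed starts, of which the upstream one is printed.
Irf7 (chr7:141266375-141266674, minus strand): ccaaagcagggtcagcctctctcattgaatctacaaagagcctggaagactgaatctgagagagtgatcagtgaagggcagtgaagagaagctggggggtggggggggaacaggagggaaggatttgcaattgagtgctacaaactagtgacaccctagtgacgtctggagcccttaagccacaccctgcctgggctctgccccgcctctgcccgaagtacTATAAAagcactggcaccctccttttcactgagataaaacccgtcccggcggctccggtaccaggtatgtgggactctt
Trim30a (chr7:104465144-104465443, minus strand): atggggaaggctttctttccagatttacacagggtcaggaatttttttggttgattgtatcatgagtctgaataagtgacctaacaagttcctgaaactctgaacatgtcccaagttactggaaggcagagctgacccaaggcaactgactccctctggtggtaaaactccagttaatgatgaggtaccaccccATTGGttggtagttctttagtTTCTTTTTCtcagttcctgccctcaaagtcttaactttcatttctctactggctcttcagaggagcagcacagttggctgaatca

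The Irf7 window held a TATA box at positions -29 to -24 from the start. The Trim30a window held the response element core at positions -35 to -27 on the opposite strand and a CCAAT box at -56 to -52, and its other start had the core at positions 4 to 12.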

How the data were processed

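The authors hybridized RNA from the 9 cultures to 1-colour Affymetrix whole-transcript mouse arrays and made log2 values by robust multi-array normalization (RMA) with affy, which corrects background, normalizes quantiles between arrays and sums up the probes of a probe set. Versions and array dates are not given in the sources used here, and the annotation rests on NCBI Build 36 in the methods. The deposited log2 values were used as they stand. Of 35556 probe sets, 21789 had exactly 1 gene symbol, 21698 of them matched by Entrez identifier, and the 1621 that carry more than 1 symbol and the 12146 with no gene named were left out. The brightest probe set stood for each of 999 genes with several, which gave 19938 genes.

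All 9 arrays entered 1 fit in limma 3.58.1 (R 4.3.3, data.table version 1.17.8) with a mean per line, 6 residual degrees of freedom and Benjamini-Hochberg adjustment over all genes of a comparison. "Rose" and "fell" mean an adjusted p under 0.05, and intervals are at 95%. No exact permutation test was used, since with 3 arrays on each side its smallest p is 0.1. Precision is limited by the number of arrays, and no detection call was used. The code was tested on simulated data. Tables and figures were made with Python 3.11.15, pandas 2.3.3, numpy 2.4.6 and matplotlib 3.10.9.

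The members and lists were chosen with earlier results of these data known. The text names every member, the 5 genes nearest to Nos2, the genes Nos1 and Nos3, and of each pathway list at most the 4 genes with the largest change against 4T1 among those past the threshold. Some items are not reported here. Markers, Gm5424 and genes without a probe set of their own were named beside the results they touch. Replicate numbers did not pair the arrays, since correlations of their deviations from the line means ranged from -0.309 to 0.327. Other settings tried were a fit restricted to 2 lines, a filter on dim genes at a highest log2 value of 6.741, repeated quantile normalization, arrays centred on their medians, the mean of a gene's probe sets, all probe sets tested, an intensity trend with a robust prior, the replicate number as a block, and leaving out each array.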

Additional observations from a re-analysis of the deposited data

Results flagged for a closer look

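The change from 4T1 differed between the selected lines, by the direct test of DR500 against MR20 in limma, for 23 of the 36 genes of the set and of the lists that were named and tested, and 5 of these moved in opposite directions against 4T1. The list genes were named for large changes against 4T1, so this count is a description, and over all genes 21.2% rose and 20.6% fell in the same comparison. Those 5 were Ddah1 (-1.22 on the log2 scale), Ddah2 (0.93), Gchfr (2.28), Nostrin (-2.50) and Pde5a (3.77), with adjusted p between 1.41e-10 and 1.01e-05. The falls of Nostrin in DR500 and of Pde5a in MR20 lay below the array medians and are uncertain. The other two genes of the set were Arg2 (0.87, adjusted p = 2.27e-06) and Pts (-0.35, adjusted p = 0.00834), which fell in both lines but by different amounts.

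Of the cofactor genes, DR500 stood below MR20 in Qdpr (-0.22) and Agmo (-1.68), and above it in Tph2 (0.48). The filter on dim genes removed Agmo and Tph2. Of the arginine genes, DR500 stood above MR20 in Slc7a7 (0.79) and Asl (0.20), and of the methyltransferases below it in Prmt7 (-0.56) and Prmt3 (-0.44). Among synthases, their partners and the targets of nitric oxide, the difference was 0.29 in Nos1 and in Nos1ap, 0.51 in Nosip, 0.49 in Prkg2 and 0.62 in Cygb. Among inducing factors it was -1.20 in Irf1, 1.26 in Cebpb, 1.07 in Tnfrsf1a and 0.39 in Irf8. The Nos1 difference (adjusted p = 0.0461) was lost without any 1 of the arrays except replicate 3 of DR500, with adjusted p up to 0.166. The filter on dim genes removed Nos1 as well. The Prkg2 difference (adjusted p = 0.0265) was lost when all probe sets were tested (adjusted p = 0.0558). This difference was also lost without replicate 2 or 3 of MR20 (0.44 and 0.50) or of DR500 (0.46 and 0.39). That of Irf8 was lost without replicate 2 of DR500 (0.34), was 0.24 without replicate 3 of MR20, and that of Nos1ap was lost without replicate 2 of MR20 (0.25).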

How the results depend on the processing

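Over 17 alternatives in 3 comparisons, 343 of the tested values of the genes of the set kept their direction and their side of the threshold, 15 lost a call, 3 gained one and 7 changed sign, the last only for Gch1 and Arg1. The 34 untested values of Nos2 kept their direction and stayed within the spread between arrays. The count of genes of the set that rose in MR20 went from 2 to 1 when all probe sets were tested, and to between 1 and 2 when single arrays were left out. In DR500 against 4T1 that count was between 1 and 3 without single arrays. The fit with the replicate block gave 2 rises and 3 falls of the set in MR20 and in DR500, as without it, and of the named genes it ended only the Nos1 difference between DR500 and MR20 (adjusted p = 0.0583). Testing all probe sets also ended the calls of Pts and Spr in MR20 (adjusted p = 0.0557 and 0.0799) and of Nos1 in DR500 (adjusted p = 0.0576). Between DR500 and MR20, this setting ended the calls of Nos1 and Prkg2 (adjusted p = 0.0813 and 0.0558). Signs changed only for small differences that passed no threshold. Gch1 in DR500 against 4T1 was 0.0303 after repeated quantile normalization and 0.0556 after centring, Prmt3 was 0.0333 and 0.0398, and Nos1ap was 0.0717 and 0.0276, or 0.0912 by the mean of its probe sets. Leaving out single arrays moved Gch1 between -0.17 and 0.17, Arg1 between -0.0027 and 0.18, Slc7a7 between -0.001 and 0.17, Nos1ap between -0.098 and 0.0246 and Nos3 between -0.0418 and 0.25 in that comparison. In MR20 against 4T1 it moved Nos1 between -0.0155 and 0.11, Tph2 between -0.0269 and 0.12, Cygb between -0.19 and 0.10 and Nos3 between -0.0787 and 0.10. In DR500 against MR20 it moved Arg1 between -0.0933 and 0.0877, Prmt9 between -0.0438 and 0.12 and Nos3 between -0.0758 and 0.22. The cause of these changes was not tested. With 3 arrays per line, differences near 0.3 on the log2 scale hung on single arrays in Pts, Spr and Ddah2.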
